A study of Paralichthys olivaceus with 6 samples.

Results

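The melanosome structure and transport genes described here were 5 gene IDs of the flounder annotation, named by their best match in other species: PMEL (GS_003590), MLANA (GS_000869), TRPM1 (GS_020582), melanoregulin (MREG, GS_004597) and myosin-Va (MYO5A, GS_001946). They were picked by these IDs out of the 22498 genes counted. The study itself had listed them as differentially expressed pigmentation genes in the same libraries, so neither a change nor its direction in these fish is independent evidence. It also measured PMEL by qRT-PCR on the RNA used for sequencing, and reported relative expression similar to that of RNA-seq. RNA came from ocular-side skin of Japanese flounder (Paralichthys olivaceus) aged 5 months, all from a single full-sib family and with no treatment named in the labels. In 3 fish the ocular side was albino (PO_alb1, PO_alb2 and PO_alb3), and 3 were normally pigmented fish that the labels call wild type (PO_con1, PO_con2 and PO_con3). No allele is named for the albino fish, and each library was made from 1 fish.

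Melanophores are the black pigment cells of fish skin, and they make melanin inside an organelle of their own, the melanosome. PMEL forms the fibrils on which melanin is laid down, and MLANA is a small melanosome membrane protein that works with PMEL. Finished melanosomes travel along microtubules and are then handed to actin filaments, where in mammals myosin-Va carries them. Melanoregulin takes part in the movement and transfer of melanosomes in mammals. TRPM1 is an ion channel of melanocytes and of retinal neurons. In skin, PMEL, MLANA and TRPM1 are thus largely confined to pigment cells, whereas MREG and MYO5A also work in other cells, MYO5A as a general organelle motor that is abundant in nerve cells. How these genes differed from fish to fish, and whether the first 3 behaved unlike the other 2, was the question asked of the counts.

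Each library held 17905084 to 20025047 counted reads. The shares held by the 10 most abundant genes were 25.1% to 33.5% in normal and 28.3% to 37.3% in albino libraries, so counts were scaled by TMM, a method of edgeR that sets libraries to a common level over most genes. Albino and normal fish were compared with edgeR's quasi-likelihood test over 16260 genes, and a gene was called at a Benjamini-Hochberg adjusted p under 0.05. A normalized count is a read count after this scaling. RPKM is the authors' read count divided by gene length and by the reads of the library, which is the scale used where the levels of different genes are ranked or summed. It is not scaled by TMM. In whole skin, fewer pigment cells and less RNA in each cell cannot be told apart. The edgeR p-values set the difference between the groups against the variation among the 3 fish of each group. The estimate of that variation borrows from other genes.

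PMEL and MLANA were the most reduced of the 5 genes in albino skin, at 52.9-fold and 18.8-fold below normal, followed by MREG at 4.57-fold and TRPM1 at 3.85-fold. MYO5A was 1.96-fold below normal. Of the 5 genes, 4 were called lower in albino fish (PMEL, MLANA, MREG and TRPM1), and MYO5A did not pass the test. Over all genes tested, 0.91% were called lower and 0.129% higher, or 1.04% in either direction. None of the 5 genes overlapped between the albino and the normal fish, and 7.47% of all genes tested had every albino value below every normal one, as 5.73% had above. The median log2 fold change was -2.19 over the 5 genes and 0.01 over all genes tested.

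**Figure D1:**
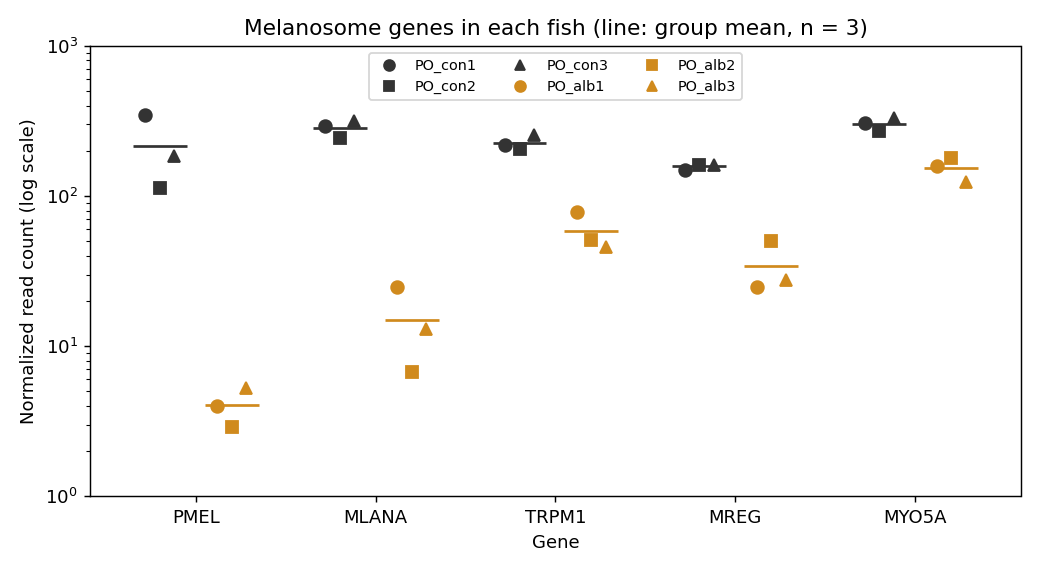
Normalized read counts (log axis) of the 5 genes in each fish, with normal fish in black, albino fish in orange, a marker shape for each fish and a line at the mean of 3 fish. PMEL in albino fish lies between 2.88 and 5.23, far below its lowest normal value of 113, while the highest albino and lowest normal values of MYO5A are 178 and 272.

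PMEL, the fibril protein, had normalized counts of 345, 113 and 186 in PO_con1, PO_con2 and PO_con3. In PO_alb1, PO_alb2 and PO_alb3 the normalized counts were 3.99, 2.88 and 5.23, which rest on 4, 3 and 4 reads. Every albino fish was thus close to the limit of detection, and the lowest normal fish was still 21.6-fold above the highest albino fish. The mean was 215 ± 118.97 (SD, n = 3) in normal fish and 4.03 ± 1.18 (SD, n = 3) in albino fish. edgeR put the log2 fold change at -5.72 (SE 0.56, adjusted p = 0.0028). On log2(RPKM + 1), which compresses low values, limma-trend gave a log2 fold change of -2.88 (adjusted p = 0.0017). PMEL was also the gene that differed most among normal fish, with a 3.06-fold range from PO_con2 to PO_con1, where the other 4 genes ranged from 1.08-fold to 1.29-fold. Its coefficient of variation in normal fish was 55.4%, and counting noise alone would give 7.35%.

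MLANA, the membrane partner of PMEL, had normalized counts of 291, 244 and 314 in PO_con1, PO_con2 and PO_con3. The normalized counts in PO_alb1, PO_alb2 and PO_alb3 were 24.9, 6.71 and 13.1. No albino fish came near a normal one, and PO_alb1 stood 3.72-fold above PO_alb2. The log2 fold change was -4.23 (SE 0.36, adjusted p = 0.0014 from edgeR), and it was -4.87 without PO_alb1. Unlike PMEL, MLANA varied little among normal fish, with a coefficient of variation of 12.7%, and more among albino fish, at 62.1%. In albino fish, with 7 to 25 reads, counting noise alone would give 30.7%.

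TRPM1, the ion channel, had normalized counts of 218, 207 and 255 in PO_con1, PO_con2 and PO_con3. The normalized counts in the albino fish were 78.8, 50.8 and 45.7 in the same order. The 2 groups were apart by 2.63-fold at their nearest values. The log2 fold change was -1.95 (SE 0.23, adjusted p = 0.0079 from edgeR), between those of MREG and MYO5A. TRPM1 was called without each library in turn (adjusted p = 0.0057 to 0.044). It was not called by limma-trend on RPKM, with adjusted p of 0.056 and 0.061 for pseudocounts of 1 and 0.1 and log2 fold changes of -1.14 and -1.94.

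MREG, which takes part in melanosome and lysosome movement, had nearly the same level in every normal fish, with normalized counts of 150, 161 and 161. In PO_alb1, PO_alb2 and PO_alb3 the normalized counts were 24.9, 49.9 and 27.4. Its coefficient of variation in normal fish, 4.23%, was no larger than the 7.79% expected from counting. PO_alb2 had the highest MREG of the albino fish, although it had the lowest MLANA. The log2 fold change was -2.19 (SE 0.27, adjusted p = 0.0091 from edgeR), and the call was lost without PO_con2 (adjusted p = 0.066).

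MYO5A, the actin motor, had normalized counts of 305, 272 and 329 in PO_con1, PO_con2 and PO_con3. In PO_alb1, PO_alb2 and PO_alb3 the normalized counts were 160, 178 and 124. The groups did not overlap, but the nearest fish of the 2 groups, PO_con2 and PO_alb2, were only 1.53-fold apart. The log2 fold change was -0.97 (SE 0.17), and its adjusted p of 0.0504 from edgeR lay just above the threshold. It was called with the size factors of DESeq in place of TMM (RLE, adjusted p = 0.049), without a filter on low counts (0.045) and with DESeq2 (0.0011), and its adjusted p ranged from 0.0011 to 0.51 over 15 alternatives. Its log2 fold change was below 0 in each of them, between -1.10 and -0.75.

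The level left in each albino fish, as a percentage of the mean normalized count of the normal fish, separated the genes more clearly than the fish. For PMEL it was 1.86% in PO_alb1, 1.34% in PO_alb2 and 2.43% in PO_alb3, with exact Poisson intervals (95%, counting error only) that together span 0.276% to 6.23%. For MLANA it was 8.82%, 2.37% and 4.62% in the same order, and the intervals of PO_alb1 (5.71% to 13%) and PO_alb2 (0.954% to 4.89%) did not meet. For TRPM1 it was 34.8%, 22.4% and 20.2%. For MREG it was 15.8%, 31.6% and 17.4%, and the intervals of PO_alb1 (10.2% to 23.4%) and PO_alb2 (23.6% to 41.5%) did not meet either. For MYO5A it was 52.8%, 59.0% and 41.1%. No albino fish was highest throughout, since PO_alb1 had the most MLANA and TRPM1 and PO_alb2 the most MREG and MYO5A. For each of these 4 genes the interval of the highest fish met that of another albino fish. The PMEL intervals of the 3 fish overlapped. Each normal fish, measured in the same way, lay between 86.1% and 112% of the normal mean for the 4 genes other than PMEL, and at 161%, 52.6% and 86.4% for PMEL in PO_con1, PO_con2 and PO_con3.

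**Figure D2:**
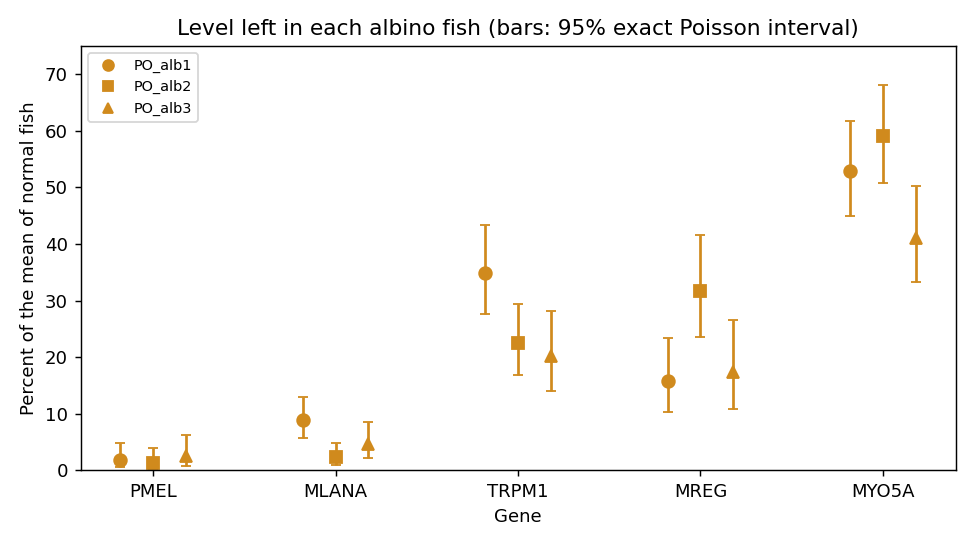
Normalized count of each gene in each albino fish as a percentage of the mean of the 3 normal fish, with bars for the 95% exact Poisson interval of the read count. PMEL lies at 1.34% to 2.43%, MLANA at 2.37% to 8.82%, MREG at 15.8% to 31.6%, TRPM1 at 20.2% to 34.8% and MYO5A at 41.1% to 59.0%.

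A ratio of 2 genes within the same library does not depend on how libraries are scaled, so pairs of genes were compared fish by fish as log2 ratios of their read counts, with 0.5 added to each count. Gene length is the same in both groups and drops out when the ratios of the groups are compared, so these ratios do not rank levels. For each pair the ratio in albino fish was set against that in normal fish by a two-sided exact permutation test, which cannot go below p = 0.1 with 3 fish against 3. Of the 10 pairs, 8 had ratios that did not overlap between the groups, each at this smallest p of 0.1 (0.125 after Benjamini-Hochberg adjustment over the pairs). The other pairs were PMEL with MLANA and TRPM1 with MREG. The 10 pairs are built from the same 5 genes, so they are not separate results. The study had picked these genes as changed on these libraries. The share of pairs that do not overlap was not computed over all genes, so no count of pairs here or below has a background.

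Read against MYO5A, each of the other 4 genes was lower in all 3 albino fish than in any normal fish. The log2 ratio of MLANA to MYO5A was -0.07, -0.16 and -0.07 in PO_con1, PO_con2 and PO_con3, nearly the same in every normal fish. In PO_alb1, PO_alb2 and PO_alb3 it was -2.65, -4.64 and -3.19. In reads, this was 89.5 to 95.5 MLANA reads per 100 of MYO5A in normal fish and 3.76 to 15.6 in albino fish. The difference of the group means was -3.39 for MLANA, and the 9 differences between an albino and a normal fish ran from -4.57 to -2.49. The same difference against MYO5A was -4.46 for PMEL (-5.91 to -3.14), -1.28 for MREG (-1.90 to -0.80) and -1.0 for TRPM1 (-1.43 to -0.53). The differences of PMEL and MLANA overlapped each other, as did those of MREG and TRPM1.

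**Figure D3:**
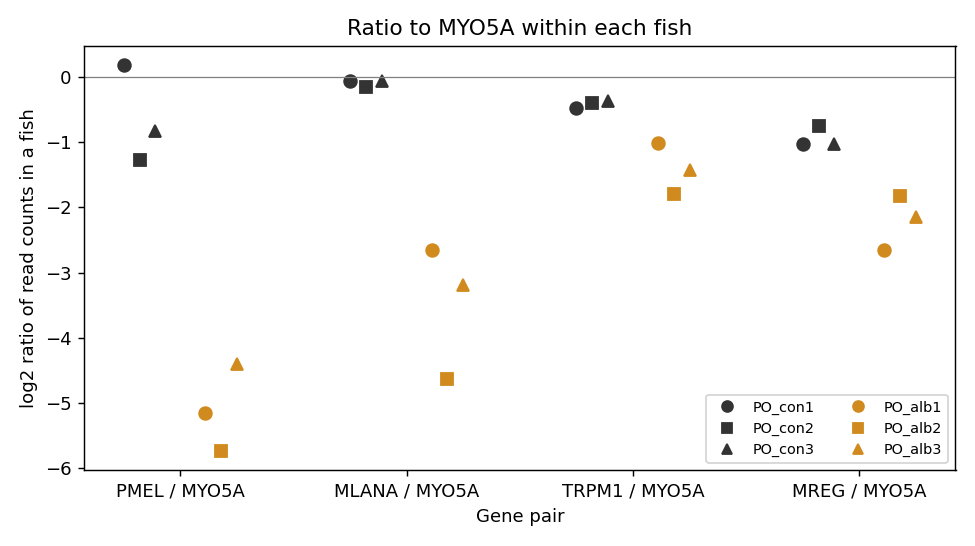
log2 ratio of the reads of 4 genes to those of MYO5A within each fish, with normal fish in black, albino fish in orange and a marker shape for each fish. The albino fish lie below the normal fish in all 4 columns, and the ratio of MLANA goes from -0.16 to -0.07 in normal fish to -4.64 to -2.65 in albino fish.

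The grouping into pigment cell genes and genes also used by other cells matched the order of the changes only in part. Of the 6 pairs that set PMEL, MLANA or TRPM1 against MREG or MYO5A, 5 had ratios lower in every albino fish than in any normal fish. The sixth pair, TRPM1 and MREG, had log2 ratios of 0.54, 0.36 and 0.66 in PO_con1, PO_con2 and PO_con3 and of 1.64, 0.03 and 0.72 in PO_alb1, PO_alb2 and PO_alb3. Its difference of 0.28 was within the spread of the fish (9 differences from -0.63 to 1.28, exact permutation p = 0.7) and turned to -0.14 without PO_alb1. The 9 differences spread widely, and an equal change of TRPM1 and MREG is not shown by them. Of the 4 pairs within a group, 3 did not overlap. TRPM1 kept more of its level than the other pigment cell genes, with a difference of -3.46 for PMEL against TRPM1 (-4.81 to -2.11) and of -2.39 for MLANA against TRPM1 (-3.25 to -1.88). PMEL and MLANA differed by -1.07 (-2.75 to 0.01, exact permutation p = 0.2), since the ratio in PO_con2 (-1.11) was as low as in PO_alb2 (-1.10). MREG against MYO5A, the pair of genes also used by other cells, is given above.

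Levels per coding length put the genes in a different order in the 2 groups. In normal fish the mean RPKM was 44.5 ± 12.4 (SD, n = 3) for MLANA and 12.7 ± 2.79 (SD, n = 3) for MREG, which did not overlap. It was 7.87 ± 3.41 (SD, n = 3) for PMEL, whose range overlapped that of MREG, and PMEL was above MREG in PO_con1. MYO5A at 3.23 ± 0.836 (SD, n = 3) and TRPM1 at 2.57 ± 0.751 (SD, n = 3) were lowest, and their ranges overlapped, although MYO5A was higher in each of the 3 fish. The highest RPKM of MYO5A, 4.188 in PO_con3, also met the lowest of PMEL, 4.187 in PO_con2.

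In albino fish the mean RPKM was 2.53 ± 1.25 (SD, n = 3) for MREG, 2.13 ± 1.5 (SD, n = 3) for MLANA and 1.51 ± 0.465 (SD, n = 3) for MYO5A, and the ranges of neighbours in this order overlapped. Below them came TRPM1 at 0.605 ± 0.247 (SD, n = 3) and PMEL at 0.136 ± 0.024 (SD, n = 3), which did not overlap with their neighbours. PMEL thus went from the third place in normal fish to the last in albino fish. The summed RPKM of the 3 pigment cell genes was 4.0, 2.81 and 3.58 times that of MREG and MYO5A in PO_con1, PO_con2 and PO_con3. In PO_alb1, PO_alb2 and PO_alb3 the ratio was 1.33, 0.293 and 0.781, so it stayed above 1 in PO_alb1 alone among the albino fish. MLANA made up most of the pigment cell sum in every fish. The lengths behind the RPKM, recovered from the counts, were 1485 bases for PMEL, 363 for MLANA, 5064 for TRPM1, 705 for MREG and 5343 for MYO5A, all multiples of 3, as in coding sequence without untranslated regions.

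**Figure D4:**
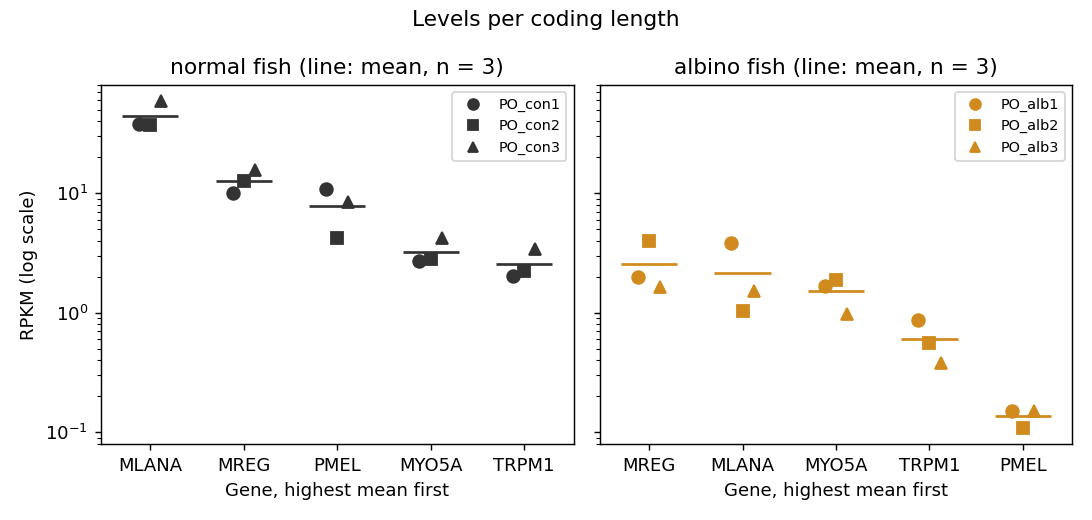
RPKM (log axis) of the 5 genes in the 3 normal fish on the left and the 3 albino fish on the right, ordered by the mean of each group (line), with a marker shape for each fish. MLANA leads in normal fish at a mean of 44.5, MREG in albino fish at 2.53, and PMEL drops from the third place to the last.

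Other genes that carry cargo along the cytoskeleton or process melanosome proteins were taken from the study's tables by their names. The study had chosen all of them as changed on these libraries. Their calls, direction and size of change are thus no independent evidence, and calls were likely from the start. All 9 of these genes were called lower in albino fish, where 0.91% of all genes tested were, and the 5 genes of melanin synthesis gave 4 calls. The list of 9 was not exhaustive. ARL14, an ADP-ribosylation factor-like gene that the study reported as higher in albino fish, was left out of it. The median log2 fold change was -2.76 over the 9 genes and -4.89 over the 5. BACE2, a protease that cleaves PMEL in mammals, had normalized counts of 172, 164 and 185 in normal and 93.8, 67.1 and 71.9 in albino fish. Its log2 fold change of -1.16 (SE 0.18, adjusted p = 0.028 from edgeR) was close in size to that of MYO5A. Actin assembly factors known to work with myosin-V in mammals were among them, with SPIRE1 at -2.76 (SE 0.33, adjusted p = 0.0079) and the formin FMN2 at -1.72 (SE 0.25, adjusted p = 0.020).

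The microtubule side of transport was represented by 2 genes for the heavy chain of kinesin-1 and by a dynein light chain. The kinesin gene GS_001154, named KIF5B, had normalized counts of 219, 237 and 318 in normal fish against 3.99, 1.92 and 2.61 in albino fish. Its fitted change by edgeR was -6.44 in log2 units (SE 0.31, adjusted p = 0.00019). The other KIF5B gene, GS_020150, had 410 reads in the normal fish together and 2 in the albino fish. Scaled for depth these stand at 181 to 1, and counting error alone (95%, Clopper-Pearson) spans 49.7 to 1496. Both of these genes were thus nearly undetected in albino skin. They came from the study's list of changed genes, and kinesin genes outside that list were not looked up. The level of kinesin-1 as a whole is therefore not known from them. The dynein light chain DYNLRB2 was at -3.39 and the microtubule-associated protein MAP6 at -3.31, with normalized counts of 9.15 to 14.4 and 2.0 to 3.84 in albino fish. RASEF and REP15, which are linked to Rab proteins of vesicle traffic, were at -2.12 and -2.42. These calls were less stable than those of PMEL and MLANA. Of the 9 genes, 4 were called without PO_con2, 5 without PO_con3, PO_alb2 or PO_alb3, and 6 without PO_con1 or PO_alb1. Of the 5 structure and transport genes, 3 were called without PO_con2 and 4 without each of the other libraries in turn. With library totals in place of TMM, and with limma-trend at either pseudocount, 5 of the 9 were called. Of the melanin synthesis genes, 2 were called without PO_alb2.

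**Figure D5:**
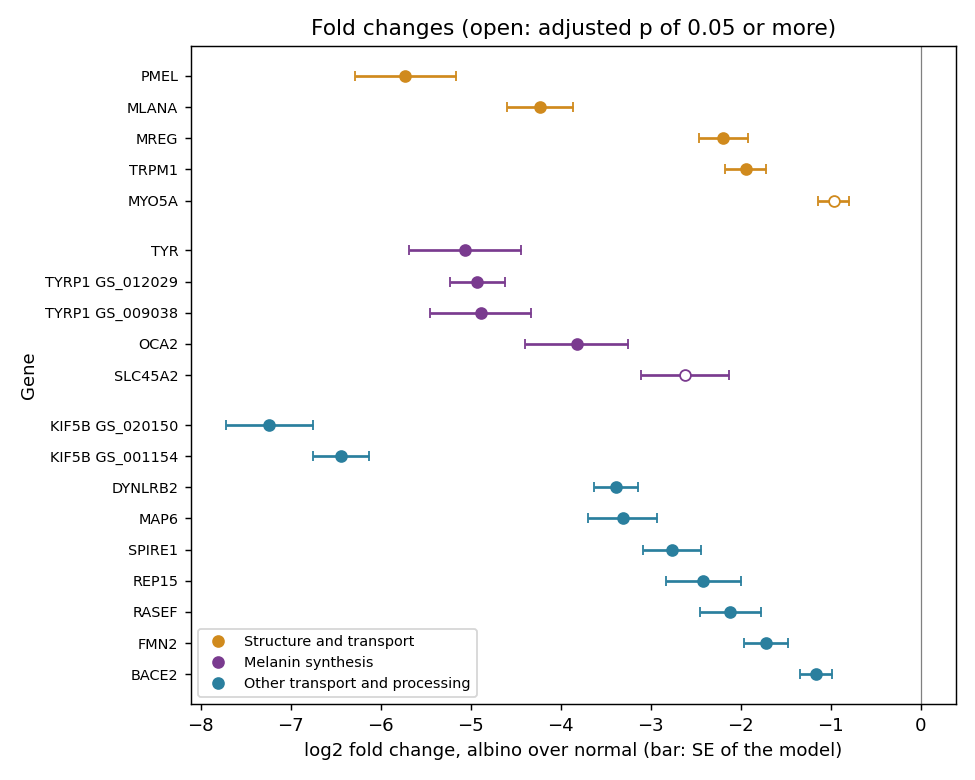
log2 fold change, albino over normal, with the SE of the model for the 5 structure and transport genes, 5 genes of melanin synthesis and 9 other genes of transport and processing, where open markers did not pass the test and the KIF5B gene GS_020150 rests on 2 albino reads. MYO5A and BACE2 lie nearest to 0 at -0.97 and -1.16, and PMEL at -5.72 lies between the kinesin genes and TYR.

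Markers of other cells moved between the same fish, and their part in the values above was not tested. Sums of RPKM are given here without TMM scaling, whose factors ran from 0.79 in PO_alb3 to 1.27 in PO_con3. The summed RPKM of 5 melanin synthesis genes was 19.6 to 35.5 in normal and 0.427 to 1.46 in albino fish, and tyrosinase (TYR) had no read in PO_alb1. That of 7 genes of other pigment cells was 155 to 411 and 0.840 to 1.99. For 3 keratin genes it was 485 to 1190 and 153 to 333, with 2 called lower (KRT18 and KRT13 GS_018838). The other KRT13 gene, GS_014679, held most of the keratin reads, with 6373 to 49584 a library. It was not called (log2 fold change -1.47, adjusted p = 0.076 from edgeR). For 4 muscle genes the sum was 648 to 932 in normal and 1526 to 1747 in albino fish, with 1 called higher and none at 0 in any library. The called gene was METTL21C (adjusted p = 0.037 from edgeR). DES, TNNT2 and MUSTN1 were not called, with adjusted p of 0.329, 0.513 and 0.0655 in the same test. DES held most of the reads of these 4 genes, with 14802 to 39611 a library. For 4 genes of nerve cells, a tissue rich in MYO5A, the sum was 3.89 to 9.44 and 1.16 to 1.24, and 3 of 3 tested were called lower. Among all genes tested, 0.91% were called lower and 0.129% higher. Some other genes that the study names and that are known from nerve cells went the other way, and these were looked up after values were seen. The inhibitory transmitter transporter slc32a1 (GS_000336) was higher in albino fish, with a log2 difference of 2.82 (adjusted p = 0.0004 from edgeR), as was the kinase Camk1g (GS_007481) at 3.44 (adjusted p = 0.0027). Grm3 (GS_006200) at 1.48 and DSCAM (GS_018185) at 1.04 did not pass, with adjusted p of 0.15 and 0.070. GAD1 (GS_020808), likewise picked after values were seen, was lower at -3.21 (adjusted p = 0.018 from edgeR). Each of the 4 listed nerve genes had every albino value below every normal one, as did 7.47% of all genes tested. Genes known from nerve cells outside that list went both ways. The study had chosen all of these genes on these libraries.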

How the data were processed

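RNA-seq was done on ocular-side skin of 3 albino and 3 normal fish, 1 library for each fish. According to the submitters' processing notes, TopHat2 2.0.9, Bowtie2 2.0.6 and Cufflinks 2.1.1 were used for alignment and assembly, and HTSeq was what the authors used for counting. Read counts and RPKM, both deposited by the authors, cover 22498 genes. The strand setting of the counting is not given in the sources used here. The deposited RPKM equal the counts divided by the summed counts of the library and by a whole length for each of the 20815 genes with a read (within 0.001 bases), and for 20120 of 20121 known genes that length was a multiple of 3.

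The main test was run in edgeR 4.0.16 under R 4.3.3 (filterByExpr, TMM, quasi-likelihood test), with limma 3.58.1 and DESeq2 1.42.0 as alternatives, and in Python 3.11.15 with scipy 1.17.1 and matplotlib 3.10.9. The test was tried on simulated data first. Normalized counts are counts divided by effective library size and multiplied by its mean over the 6 libraries. The SE of a fold change is its size divided by the square root of the F statistic. Intervals cover counting error only. Alternatives were other scaling, DESeq2, limma-trend on log2(RPKM + 1) and log2(RPKM + 0.1), other filters, a robust variance estimate, a block for the replicate number, and the omission of each library in turn. The list counts under these alternatives were chosen after seeing the data. For ratios of 2 genes, 2 counts were added in place of 0.5, or RPKM + 0.1 was used.

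The genes named are the 5 genes, lists made by function from the study's tables, and the 3 genes most correlated with each of the 5 among those that the study names. The 5 genes, the lists and the split by cell type were chosen with earlier results of these data known. Names are best matches in other species. The RefSeq table of the species holds none of the 5 IDs, and it lists 2 genes named for PMEL (pmela and pmelb), so reads may be divided between near copies. Sequences and coordinates were not used here.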

Additional observations from a re-analysis of the deposited data

How the results depend on the processing

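The log2 fold changes of the 5 genes were below 0 under all 15 alternatives, and those of PMEL and MLANA stayed past the threshold in each. TRPM1 was not called by limma-trend on log2(RPKM + 1) (-1.14) or log2(RPKM + 0.1) (-1.94). MYO5A was called with RLE size factors (-0.96), DESeq2 (-0.96) and no low-count filter (-0.97). With 1 library left out, the log2 fold changes ranged from -6.03 to -5.20 for PMEL, -4.87 to -3.85 for MLANA, -2.22 to -1.81 for TRPM1, -2.59 to -2.0 for MREG and -1.08 to -0.84 for MYO5A, with 3 to 4 genes called. The difference of TRPM1 and MREG ranged from -0.14 to 0.66, reversed without PO_alb1, and the other pairs kept their direction. Over all genes, 148 were called lower and 21 higher, against 272 and 84 with DESeq2, 89 and 7 with limma-trend on log2(RPKM + 1), 101 and 6 on log2(RPKM + 0.1), 99 and 7 with library totals, 127 and 13 with a stricter filter on low counts, and 67 to 138 and 2 to 14 with 1 library left out, fewest without PO_con2 (67 and 2) and most without PO_con1. Library totals alone moved the median of all genes to -0.13, and causes were not tested.

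The replicate numbers were not taken as pairs in the main test. Same-numbered libraries deviated from their group means with correlations of -0.16, 0.18 and -0.43, and not every fish correlated best with its own number. Deviations from a mean of 3 fish offset each other, so these correlations cannot exclude a pairing. With the number as a block, 2 of the 5 genes were called, TRPM1 (-1.97, adjusted p = 0.063) and MREG (-2.25, adjusted p = 0.052) not among them, and 53 genes were lower and 4 higher over all genes (edgeR). The block left 3 of 9 transport and processing genes and 1 of 5 melanin synthesis genes called. PMEL in albino fish rests on 3 to 4 reads a library, so its fold change is limited by depth.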

Other observations

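The genes whose pattern over the 6 libraries was most like that of each of the 5 genes were sought by Pearson's r of log2 TMM-normalized counts among the genes that the study names. These r are descriptions over 6 points that share the difference between the groups, and the named genes were chosen by the study on these libraries. For PMEL they were LMNA, a nuclear lamin (r = 0.987), OCA2, a melanosome protein that the melanin pathway needs (0.986), and PDE8B, a phosphodiesterase (0.984). For MLANA they were SLC22A7, FAM123A and FOXD2, at r of 0.998, 0.998 and 0.997. For TRPM1 they were FCAMR, AHI1 and SLC2A11, each at 0.997. For MREG they were the kinase STK17A (0.990), the receptor GPR21 (0.989) and the actin factor SPIRE1 (0.989). For MYO5A they were KRT18 (0.995), a keratin, HHIP (0.989), an inhibitor of hedgehog signalling, and GAD1 (0.984). An r over 0.95 was reached by 100 to 170 of the 16259 other genes tested, so these are the nearest of many. Among the 5 genes, r was highest for MLANA and TRPM1 (0.987) and lowest for MLANA and MREG (0.889).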
